A study of Drosophila melanogaster with 2 samples.

Results

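A minority of the binding sites of the Drosophila melanogaster protein CG10462 lay just inside genes, past the transcript start, and these 164 sites are described here. They were the entries of the combined peak list whose summit, the position of highest enrichment, lay 1 to 500 bp downstream of the nearest annotated transcript start in the direction of transcription. Summits lying between 2 starts that point away from each other and are at most 1000 bp apart were left out. The 164 summits were 5.48% of the 2993 in the list (95% Wilson interval 4.72 to 6.35%), and they lay at 161 genes. Another 717 summits were 1 to 500 bp upstream of their nearest start at promoters of the same one-directional kind and served for comparison. A further 720 lay between divergent starts, 2 lay exactly at a start and 1390 lay more than 500 bp from any start.

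The sites were mapped by chromatin immunoprecipitation with sequencing (ChIP-seq), in which an antibody recovers a protein together with the DNA it sits on. The flies were a stable transgenic line carrying CG10462 fused at its C-terminus to enhanced green fluorescent protein, and the antibody was against that tag. The 2 samples, biological replicates 2 and 3 of 1 group, were whole embryos of 0 to 24 hours with both sexes pooled, so cell types and stages of the embryo were mixed. The 2 labels give different protocol documents, and no untagged sample was analysed here. The lists hold no read counts, so the depth is unknown, and all intervals below cover the sampling of peaks only.

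RNA polymerase II begins transcription at the start of a gene, guided by core promoter elements such as the TATA box before the start and the initiator across it. Active fly promoters usually have a stretch with few nucleosomes just upstream of the start, followed by the first well placed nucleosome downstream, and many sequence-specific factors bind in the open stretch. Sequence rich in A and T is common where nucleosomes are few. A site downstream of the start falls in a first exon, often untranslated, or in a first intron, which in flies often holds regulatory sequence.

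Low G and C content at the summit was clearest, on average, among the sites far inside genes. The 100 bases centred on the summit are shown for 3 of these and for a pair of noncoding RNA genes with summits close to the start. All are on the strand of the gene, 5′ to 3′, from the Release 6 genome of build dm6, with the longest run of only A and T in capitals. CG31612, whose summit was 489 bp past the start in an intron, is at 2L:21794909-21795008, minus strand. Ptp4E, a receptor tyrosine phosphatase gene with its summit 406 bp past the start in an intron, is at X:4939937-4940036, plus strand. For lncRNA:CR44676, with its summit 357 bp past the start in an exon, the window is 3L:19560784-19560883, minus strand, and runs past the end of the gene. Close to their starts, at 57 bp and 7 bp, are lncRNA:CR44149 at 2L:9568679-9568778, minus strand, and lncRNA:CR31840 at 2L:14024043-14024142, minus strand. Both have the summit in an exon, and the window of lncRNA:CR31840 begins before its start.
CG31612: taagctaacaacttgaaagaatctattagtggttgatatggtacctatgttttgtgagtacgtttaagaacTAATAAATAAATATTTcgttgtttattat
Ptp4E: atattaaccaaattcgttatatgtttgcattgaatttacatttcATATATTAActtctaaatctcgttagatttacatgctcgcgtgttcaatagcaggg
lncRNA:CR44676: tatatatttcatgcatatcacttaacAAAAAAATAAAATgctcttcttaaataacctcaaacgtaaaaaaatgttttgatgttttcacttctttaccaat
lncRNA:CR44149: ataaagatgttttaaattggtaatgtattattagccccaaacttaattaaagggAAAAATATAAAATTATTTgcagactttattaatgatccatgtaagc
lncRNA:CR31840: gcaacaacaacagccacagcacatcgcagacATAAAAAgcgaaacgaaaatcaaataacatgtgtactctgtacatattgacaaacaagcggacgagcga
The runs were 16, 9, 13, 18 and 7 bases long, and G and C made up 26, 30, 23, 24 and 42% of the windows, in the order shown. The window of lncRNA:CR44149, though close to its start, was thus as rich in A and T as the 3 far ones shown, and that of lncRNA:CR31840 was less so. Not all far sites were like these 3. The 100 bases at omd, 480 bp past the start, held 59% G and C, and those at lncRNA:CR44667, 494 bp past it, 51%. Of the 62 sites beyond 300 bp, 53 were lower at the centre than the mean of the flanks.

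For genes whose summit lay almost on the start, 30 bases beginning 15 before the start are shown, because it is the start, not the summit, that they share. RpL30 and RpL27 code for proteins of the large ribosomal subunit and eEF2 for a translation elongation factor, and the base annotated as the start is in capitals. The windows are 2L:19009292-19009321, 3R:25685037-25685066 and 2L:21682102-21682131, all on the minus strand.
RpL30: ctatttgtattaattGgtggtattttctcg
RpL27: catctctaaaatctcCccttcttttctttt
eEF2: gtcgctgcagcgcctCgctctttcctgtcg
These starts carried no initiator sequence TCAGT within 10 bases, as was the case for most starts of every group compared below. Only this form of initiator was counted at the starts. Another form, the TCT initiator CTTTTC, was not counted there, and its letters stand in the RpL27 sequence shown.

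Within the 500 bp, downstream summits were most numerous next to the start, fewer from 100 to 350 bp and more numerous again from 351 bp. They did not stop at the far end, which is only the limit of the rule, since 309 were counted at a limit of 1000 bp. Within 100 bp of the start there were 64, over 100 to 300 bp from it 38, and over 300 bp 62. The median distance was 176.5 bp (quartiles 56 and 392.25, range 2 to 499). Upstream summits had a different shape, with 134, 420 and 163 in the same 3 distance classes and a median of 192 bp (quartiles 119 and 289). In the first 25 bp on each side the numbers were close, 25 downstream and 23 upstream, whereas between 100 and 200 bp they were 22 and 242. The 500 bp limit did not fall in a gap: just inside it were Eip63F-1 at 499 bp, lncRNA:CR44667 at 494 bp and CG31612 at 489 bp, and just outside were lncRNA:CR44619 at 501 bp (rank 39 in the list), CG5854 at 512 bp and lncRNA:CR44628 at 513 bp. The distance classes were chosen after this distribution was seen.

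**Figure D1:**
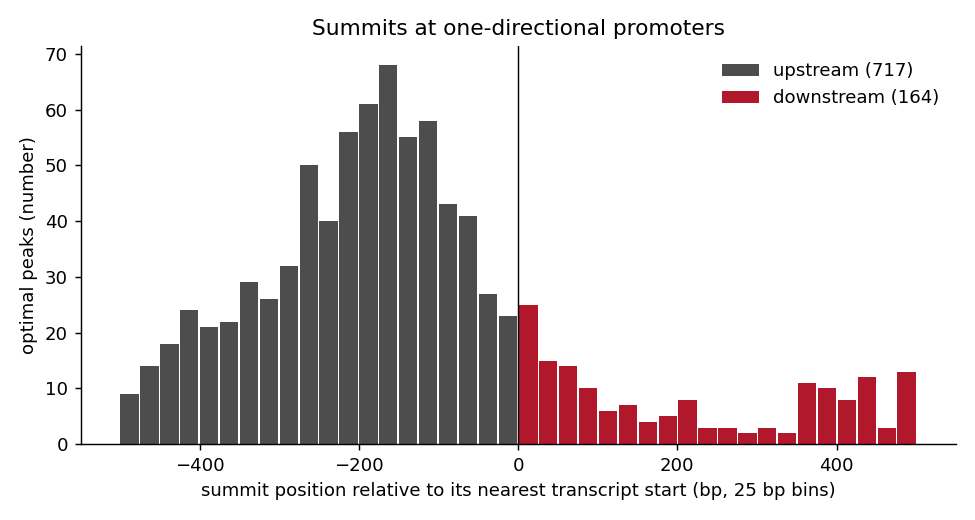
Number of peak summits in 25 bp bins by position relative to the nearest transcript start (x axis, bp, negative upstream), for 717 upstream summits (grey) and 164 downstream summits (red) at one-directional promoters. The upstream summits form 1 hump with its median at 192 bp. The downstream ones are most numerous next to the start and rise again in most bins from 351 bp to the 500 bp limit of the rule.

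The replicates put their own summits on the same side of the start at all sites far from it and at fewer of those close to it. This was largely set by the matching at the far sites, because the combined summit came from the reads of both replicates and a replicate entry had to overlap the combined peak, which covered no start beyond 300 bp. Each replicate has its own relaxed list of 30000 entries, and the strongest entry overlapping a peak gave that replicate's summit. Both replicate summits lay downstream of the same start for 142 of 164 sites (86.6%, Wilson interval 80.5 to 91.0%). In the 3 distance classes, nearest first, this was 44 of 64 (68.8%), 36 of 38 (94.7%) and 62 of 62 (100%, interval 94.2 to 100%). Upstream summits kept their side in 116 of 134 (86.6%), 414 of 420 (98.6%) and 162 of 163 (99.4%). The summits of the 2 replicates were a median of 31 bp apart (quartiles 13 and 66, 161 sites), which is of the same size as the distance from the start for many of the nearest sites. Replicate 2 put 9 summits upstream of the start, and replicate 3 put 13 upstream and 1 exactly on it. Replicate 3 had no entry for chrb, CG5805 and jvl, genes named here after their values were seen.

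**Figure D2:**
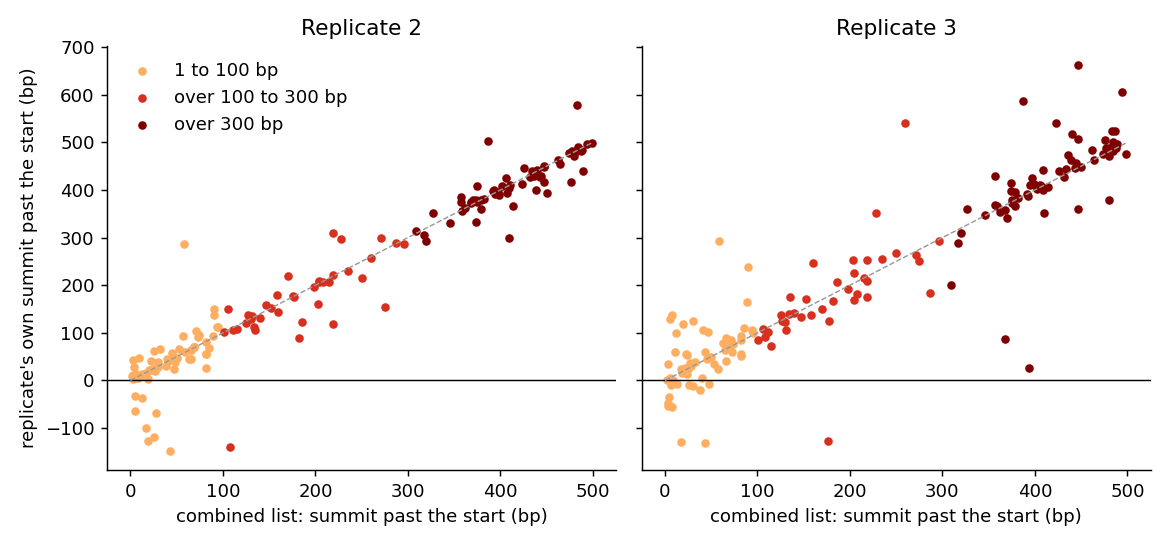
Distance of each replicate's own summit from the start (y axis, bp, negative upstream) against that in the combined list (x axis, bp), 1 point per site, for replicate 2 with 164 sites and replicate 3 with 161. The dashed line marks equal distance. Points below the horizontal line at 0 are nearly all within 100 bp of the start in the combined list, and none of the 62 sites beyond 300 bp is below it.

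The strongest downstream sites lay at genes of several kinds, and their ranks were close in the 2 replicates with 1 exception among the first 10. Rank 1 is the strongest entry by the authors' signal value within a list. CG9147 had the best rank, 17 overall and 18 in both replicates, with the summit at 2L position 6066106, 19 bp past the start in an exon outside the coding sequence. CG8320 followed at rank 29 (33 in each replicate), 111 bp past the start in an intron at 2R position 15992519. GstE13, a glutathione S-transferase gene, ranked 44 (56 in replicate 2 and 39 in replicate 3) at 66 bp. The ranks of these 3 genes thus moved little between replicates. In contrast, lncRNA:CR31840, ranked 45 in the combined list, was at 16 in replicate 2 and 464 in replicate 3, and its replicate summits were 6 bp downstream and 9 bp upstream of the start.

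Noncoding genes and genes of regulators stood among the next ranks. The site of lncRNA:CR44149 ranked 50 (45 in replicate 2, 53 in replicate 3), and that of asRNA:CR45928, whose start lies inside the gene ytr, ranked 60 (62 and 59). CG9399 ranked 70 (61 and 90) at 43 bp, and tank ranked 82 (98 and 74) at 94 bp. An entry ranked 451 in the relaxed list of all reads together lay within 500 bp upstream of the start of tank. The first site far from its start was in ph-p, which codes for polyhomeotic proximal of Polycomb repressive complex 1, ranked 88 (115 and 65), with its summit at X position 2137976, 395 bp into the first exon. CG31612 ranked 101 (88 and 145). CG4676 ranked 187 (238 and 146) with its summit 6 bp past the start, and Ptp4E ranked 214 (326 and 127). The last of the 15 best ranked sites were lncRNA:CR44676 at 255 (306 and 196), Eip75B, an ecdysone-induced nuclear receptor gene, at 264 (236 and 390), and lncRNA:CR44363 at 284 (311 and 267). At Eip75B the summit lay 50 bp past the start, and the replicate summits were 2 bp apart.

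Of the 3 sites nearest to their starts 1 changed sides between replicates, and of the 3 farthest 0 did. Rbpn-5 had its summit 2 bp past the start, with replicate summits at 9 bp and exactly at the start. RpL30 and p (pink, an eye pigment gene) had theirs 3 bp past the start; for RpL30 the replicate summits lay 11 bp downstream and 54 bp upstream, and for p both lay downstream, at 3 and 34 bp. At the far end, Eip63F-1, an ecdysone-induced gene for a calcium-binding protein, had replicate summits at 499 and 476 bp, and CG31612 at 440 and 496 bp. At lncRNA:CR44667 they lay at 496 and 605 bp, so that replicate 3 passed the 500 bp limit.

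As a group the downstream sites were weaker than the upstream ones. Their median rank was 1637, with quartiles at 812 and 2273, against 1279 for upstream summits, and 74 of 164 (45.1%) were among the 1496 strongest peaks of the list, against 408 of 717 (56.9%). The difference was −11.8 percentage points (Newcombe 95% interval −20.0 to −3.31). Part of this went with distance: within 100 bp of the start the shares were 42.2% downstream and 43.3% upstream, between 100 and 300 bp 47.4% and 62.1%, and beyond 300 bp 46.8% and 54.6%. The differences for the nearest and the farthest class were −1.10 points (−15.2 to 13.5) and −7.83 points (−21.8 to 6.61), intervals that include 0. In 4 classes of rank of nearly equal size, from strongest to weakest, downstream sites made up 13.8%, 17.4%, 24.7% and 20.6% of the one-directional promoter summits.

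Fewer downstream than upstream sites were strong in both replicates. Over all 2993 peaks, 71.5% overlapped an entry among the 2993 strongest of each replicate. This held for 109 of 164 downstream sites (66.5%) and for 539 of 717 upstream ones (75.2%), a difference of −8.71 points (Newcombe interval −16.8 to −1.18). Counting only sites whose replicate 2 summit kept its side, it was −7.32 points (−15.6 to 0.236), with the ranks of both replicates still used. The largest ratios of ranks were at wun, a lipid phosphate phosphatase gene that guides germ cells, with 332 in replicate 2 and 16048 in replicate 3, at lncRNA:CR31840, and at omd with 1117 and 23857. For all 3 the weaker rank was in replicate 3. At wun the replicate summits lay 391 and 27 bp past the start, 364 bp apart, so its ratio compares entries at different places. At omd they lay at 480 and 378 bp. The gene eIF3h, which codes for a subunit of a translation initiation factor, had a pair of sites at 296 and 58 bp, ranked 541 and 2499. Both took the same entry in each replicate, at 286 and 293 bp, because only the strongest overlapping entry was used. Whether a replicate had a weaker entry at the nearer site was not looked up.

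**Figure D3:**
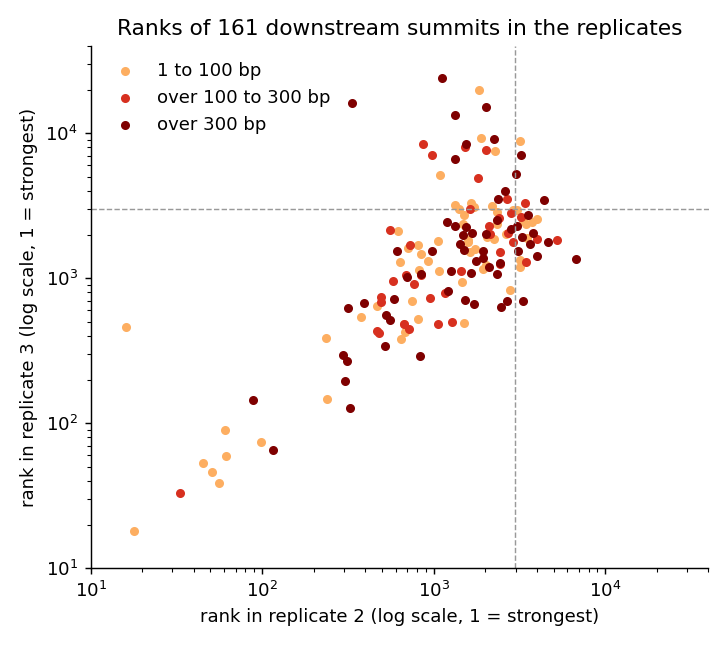
Rank of each downstream site in replicate 3 against replicate 2, both on log scales with 1 the strongest, coloured by distance from the start; 161 sites with an entry in both are shown. Dashed lines mark rank 2993. Sites of all distances lie along the diagonal, and the highest ranks, up to 23857, are in replicate 3.

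Noncoding RNA genes were more common at downstream than at upstream sites. Of the 164, 124 were at protein-coding genes, 38 at noncoding RNA genes, 1 at a pseudogene and 1 at snRNA:U1:95Ca, a gene for the U1 small nuclear RNA of the spliceosome. The 40 that were not protein-coding made up 24.4%, against 46 of 717 (6.42%) upstream, a difference of 18.0 points (Newcombe interval 11.7 to 25.3). The share over all annotated starts was not counted, so these values do not show which side departs from the annotation. The difference had the same sign at each distance, with 8.70 points (1.79 to 18.8) within 100 bp, 22.8 (10.5 to 38.7) between 100 and 300 bp and 25.1 (12.9 to 38.1) beyond. By annotated name, 33 of the genes were long noncoding RNAs and 3 antisense RNAs. Of the 40 starts, 15 lay inside another gene. When only starts of protein-coding genes were counted, 34 of the 40 summits were more than 500 bp from any start and 6 were upstream of one, so each of these sites owed its place here to the noncoding annotation.

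The initiator sequence was rarer at the starts next to downstream sites than at those next to upstream ones. Against all annotated starts it was not clearly rarer, since the downstream interval includes their share. TCAGT on the coding strand within 10 bases of the start was found at 13 of 164 starts (7.93%, Wilson interval 4.69 to 13.1%), at 146 of 717 starts with an upstream summit (20.4%, 17.6 to 23.5%) and at 11.4% of 23697 annotated start positions. The difference between downstream and upstream was −12.4 points (Newcombe interval −16.9 to −6.57), and with protein-coding starts alone it was −10.8 points (−15.8 to −3.82). Distance again went with the share: among upstream summits it was 8.21% within 100 bp, 21.7% between 100 and 300 bp and 27.0% beyond, against 4.69%, 10.5% and 9.68% downstream. The difference excluded 0 beyond 300 bp (−17.3 points, −26.2 to −5.64) but not within 100 bp (−3.52, −10.2 to 5.43) or between 100 and 300 bp (−11.1, −18.8 to 2.95). The TATA box TATAAA between 45 and 15 bases before the start was found at 4 of the 164 starts (2.44%) at 3.77% of those with an upstream summit and at 6.86% of the 23697 annotated start positions. The difference between downstream and upstream was −1.33 points (−3.55 to 2.52). Both windows at the start and the comparison of noncoding genes were chosen after the data had been seen.

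**Figure D4:**
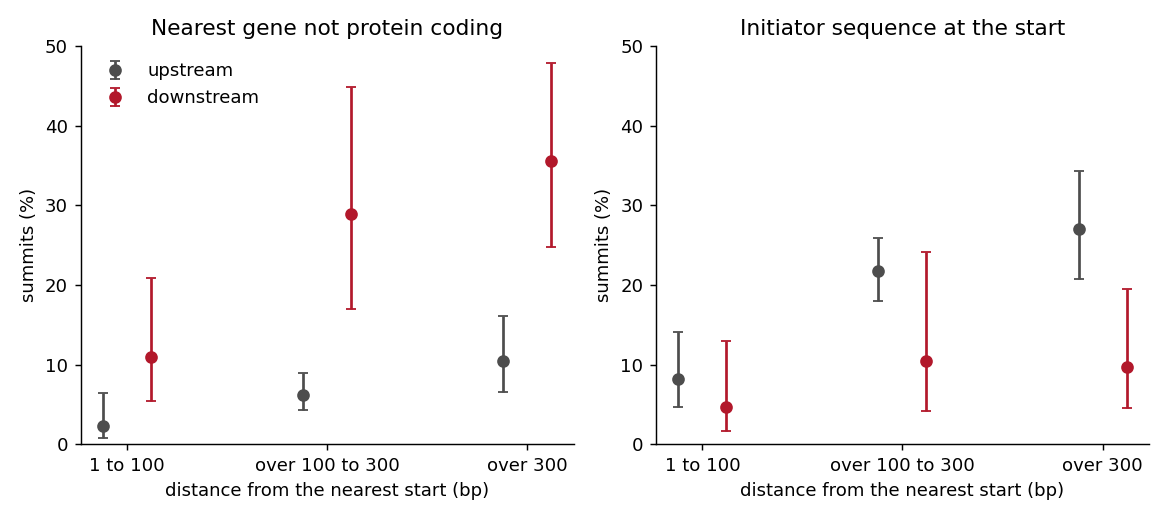
Share of summits (y axis, percent) whose nearest gene is not protein-coding (left) and whose start carries the initiator sequence (right), by distance from the start, for upstream (grey) and downstream (red) summits; bars are 95% Wilson intervals. Downstream shares are higher on the left in all 3 classes, reaching 35.5%, and lower on the right, with overlapping intervals within 300 bp.

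The part of the gene under the summit changed with distance, as the rule itself requires. In untranslated or noncoding exons lay 111 sites, 47 in introns, 3 in coding exons and 3 past the end of a short gene. Within 100 bp of the start 63 of 64 were in such exons and 0 in an intron, while beyond 300 bp 35 of 62 were in an intron. Of the 124 sites at protein-coding genes, 106 lay before the first coding base of transcripts from that start. The coding exon sites, named after their values were seen, were the nearer one of eIF3h and those of CG44812 and CG32195, with ranks of 2499, 2638 and 2987 near the end of the list. The sites past a gene's end were at lncRNA:CR45251, snRNA:U1:95Ca and lncRNA:CR45292, also named after their values were seen. Peaks of the list have a nearly fixed width, 416 bp for 138 of the 164, so the peak covered the start at 63 of 64 sites within 100 bp and at 0 of 62 beyond 300 bp.

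Many genes with a downstream site had other starts or other entries nearby. More than 1 start was annotated for the gene of 93 sites, and for 35 of them a later start of the same gene lay within 500 bp beyond the summit. An example is RpL30, whose other start was 66 bp past the summit. In the 500 bp before the start, 49 sites had an entry of the pooled relaxed list, and 11 had one among the 2993 strongest of that list. Of those entries 9 ranked above the downstream site, as at PIG-F, named after its values were seen, where the upstream peak ranked 46 and the downstream one 1958.

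Far downstream sites lay in a narrow valley of G and C content, and near ones at the upstream edge of a rise. The 100 bp around the summit held 33.9% G and C bases (SD 7.70, n = 62) beyond 300 bp from the start, against 45.1% (SD 9.55) 400 bp upstream and 45.8% (SD 9.52) 400 bp downstream, and 53 of the 62 were lower at the centre than the mean of the flanks. From 101 to 300 bp the centre held 38% (SD 10.5, n = 38), with 38.4% and 43.2% in the flanks. Within 100 bp it held 39.5% (SD 8.81, n = 64), with 39.7% upstream and 48.5% downstream. Over all 164 centre minus mean of the flanks was −6.83 points (95% interval −8.79 to −4.86). By distance it was −4.61 (−8.04 to −1.18) within 100 bp, −2.80 (SD 13.4, no interval made) between 100 and 300 bp and −11.6 (−13.9 to −9.22) beyond. The centre was lower than the mean of the flanks at 34 of 64 sites within 100 bp and at 20 of 38 between 100 and 300 bp. Within 100 bp the centre differed from the upstream flank by −0.219 points (−4.40 to 3.96) and from the downstream flank by −9.00 points (−12.7 to −5.32).

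The same position mirrored to the other side of the start served as a control for distance. For sites beyond 300 bp G and C at the centre minus that at its mirror position upstream of the start was −5.69 points (−9.21 to −2.18). Within 100 bp and between 100 and 300 bp the differences were −0.641 (−3.13 to 1.85) and 0.0526 points (−4.25 to 4.36). The value within 100 bp is pulled towards 0 by the method, because windows less than 50 bp from the start share bases with their mirror. Of the 64 sites in that class, 40 lay 1 to 50 bp past the start, so it gives no contrast with the far sites. In the mean profile of the sites within 100 bp the lowest 50 bp window was not at the summit, where it held 39.3% (SE 1.45), but 200 bp upstream of it, at 33.1% (SE 1.30). Beyond 300 bp the lowest window was 25 bp past the summit, at 32.5% (SE 1.09). Upstream summits had theirs 25 bp before the summit, at 32.0% (SE 0.404). The windows were picked as the lowest of each profile, and no test was made of them.

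**Figure D5:**
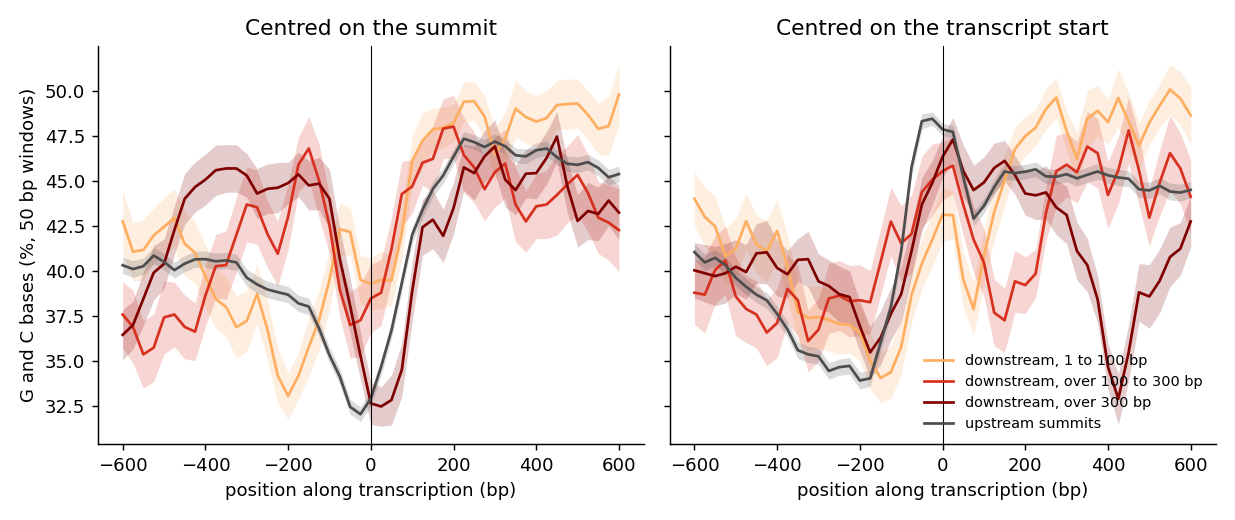
Mean share of G and C bases in 50 bp windows (y axis, percent; bands are 1 standard error over sites) along the direction of transcription, centred on the summit (left) or on the transcript start (right), for downstream sites in 3 distance classes (64, 38 and 62) and 717 upstream summits. On the left the far downstream sites and the upstream summits fall to about the same depth at 0, while the sites within 100 bp have their lowest value 200 bp before the summit.

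Compared with upstream summits, downstream ones were less rich in A and T at the centre. The mean was 37.0% G and C (SD 9.13, n = 164) downstream and 33.4% (SD 9.60, n = 717) upstream, a difference of 3.67 points (95% interval 2.10 to 5.23). This did not hold at matched distance near the start, where both sides were high, with 39.5% downstream and 41.6% upstream (difference −2.09, −4.84 to 0.658), nor beyond 300 bp, where both were low, with 33.9% and 32.5% (1.40, −0.990 to 3.78). Between 100 and 300 bp it was 38% against 31.1% (6.94, 3.52 to 10.4). Around the start itself, the step from the 100 bp before to the 100 bp after was 1.27 points downstream and −1.79 points upstream, a difference of 3.06 points (1.14 to 4.98), which fell to 0.507 (−1.25 to 2.27) with windows of 200 bp.

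No consensus sequence separated the summit from the sequence 400 bp upstream of it. Of 25 consensus sequences of core promoter elements and fly transcription factors, searched on both strands in the 100 bp centre and the flank, 0 passed an exact McNemar test with Benjamini-Hochberg adjustment at 0.05, and 0 had an unadjusted p under 0.05. Over all 2993 summits 18 of the 25, or 72%, passed the same test against the left flank, with many more sites. Against the flank 400 bp downstream, 3 had an unadjusted exact p under 0.05 and 0 passed. TATAAA was in 28 centres and 12 downstream flanks (unadjusted exact p = 0.0139, adjusted 0.173), GGGCGG, a GC box, in 1 and 10 (0.0117, adjusted 0.173), and TATATA in 17 and 6 (exact p = 0.0266, adjusted 0.222). Of the 17 centres with TATATA, 11 were beyond 300 bp, and of the 28 with TATAAA, 15. BEAF-32 binds CGATA, which was in 26 centres and 27 upstream flanks, with 17 of the 26 centres within 100 bp of the start. A match is a description of the letters in the window and not a measured site of any factor.

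Genes of chromatin regulators and of the translation machinery had a few downstream sites each. A gene was counted as having a promoter summit if any summit lay within 500 bp of any of its starts. This includes summits between divergent starts and summits nearer to another gene's start, which the rule does not count as downstream sites of that gene. Of 18277 annotated genes 2205 had a promoter summit in this wide sense, and 161 (0.881% of all, 7.30% of the 2205) had a downstream site. Of 29 Polycomb and Trithorax group genes, which keep genes silent or active through development, 9 had a promoter summit and 3 a downstream site. Beside ph-p these were Su(z)12, of Polycomb repressive complex 2, at rank 1790 (2244 in replicate 2 and 1855 in replicate 3) and 69 bp, and Psc, of Polycomb repressive complex 1, at rank 2340 (1834 and 19879) and 47 bp. Psc was thus far down the list of replicate 3, whereas Su(z)12 and ph-p were not. Of 15 insulator and architectural protein genes 7 had a promoter summit and 2 a downstream one, Trl, which codes for the GAGA factor, at rank 667 (583 and 951) and 198 bp, and pita, a zinc-finger architectural protein gene, at rank 2348 (3417 and 3308) and 130 bp. The start used for Trl lies inside CG42507.

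The ribosomal protein genes with a downstream site were RpL30 and RpL27. Of 92 genes for cytosolic ribosomal proteins 42 had a promoter summit and 2 a downstream one, which is 4.76% of the 42 and 2.17% of the 92. RpL30 was at rank 682 (633 in replicate 2 and 1301 in replicate 3) and RpL27 at rank 2721 (1413 and 2997), 3 and 5 bp past their starts. Neither kept its side in both replicates, since the replicate 3 summit of RpL30 and the replicate 2 summit of RpL27, 33 bp away, were upstream of the start. Of 54 translation factor genes 11 had a promoter summit and 2 a downstream one, eIF3h and eEF2, the latter at rank 1840 (1648 and 3314) and 9 bp. Of 39 cell cycle and replication genes 7 had a promoter summit, and Cdk4, a cyclin-dependent kinase gene, had a downstream one at rank 1667 (1586 and 1770) and 24 bp. The other 9 lists, among them mitochondrial ribosomal proteins with 19 of 73 genes at a promoter summit, RNA polymerase and general transcription factors with 18 of 63, and the Notch pathway with 9 of 25, had 0 downstream sites. The lists are small and the counts are descriptions only.

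The gene of the tagged protein was not among the 164. CG10462 and Chro, which codes for Chromator, had summits 60 and 80 bp past their nearest start, but both fall between divergent starts, 324 and 321 bp apart, and were left out by the rule. They are named here after their values were seen. The 164 sites were spread over the main arms, with 33 on 2L, 37 on 2R, 33 on 3L, 36 on 3R and 25 on X, and 0 on chromosome 4.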

How the data were processed

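The authors deposited peak lists in builds dm6 and dm3, and the dm6 lists were used. Per the file headers and notes, relaxed lists exist of the single replicates and of all reads together, with peaks taken against 1 control, and the optimal list was thresholded by the irreproducible discovery rate. The aligner and caller were not given in the sources used here. A signal value of unstated scaling comes with each deposited entry and served only to rank entries within a list. All optimal entries are also in the pooled list.

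Starts came from Ensembl release 115 (24111 distinct entries, transposable elements left out), sequence from Release 6. Replicate entries overlapped a peak by at least 1 bp. Shares have Wilson intervals, differences of shares Newcombe intervals, means 1.96 standard errors; the 9 comparisons with upstream summits, and those by distance, were not adjusted for each other. Class assignment and the McNemar test were tested on simulated data. The software was scipy 1.17.1, numpy 2.4.6, pandas 2.3.3 and matplotlib 3.10.9 under Python 3.11.15. The sites, gene lists and consensus sequences were chosen with earlier results of these data known. Named by rule were the 15 best ranks, the 3 nearest, the 3 farthest, the 3 largest ratios of replicate ranks and up to 3 sites of each of 14 lists. Alternatives were other limits, starts, windows, flanks and subsets of sites.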

Additional observations from a re-analysis of the deposited data

Results flagged for a closer look

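Downstream summits also appeared in data that the comparisons did not use. Among the entries at ranks 2994 to 5986 of the pooled relaxed list, which follow the optimal ones, 299 of 918 summits at one-directional promoters were downstream of the start (32.6%, Wilson interval 29.6 to 35.7%), against 18.6% (16.2 to 21.3%) of the 881 in the optimal list. These entries did not pass the authors' threshold. The control that the lists were called against was not analysed here, and whether the entries are background was not tested.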

How the results depend on the processing

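Of 83 alternatives, 54 kept the direction and the side of the interval or stayed near the value given. The count of 164 was 86 at a limit of 200 bp, 309 at 1000 bp and 74 among the 1496 strongest peaks; the strongest 2993 entries of 1 replicate alone gave 178 to 200. The share kept downstream in both replicates was 74.4% at 200 bp, 96.8% over 50 bp from the start, 91.9% among the 1496 strongest, 68.8% within 100 bp and 100% beyond 300 bp. At 200 bp the intervals came to include 0 for the share among the 1496 strongest (−9.10 points), both replicates (−7.13) and the step in G and C at the start (0.664), and that for covering the start came to exclude it (10.2). With windows of 200 bp the step in G and C was 0.507, within 100 bp it was 1.46, and beyond 300 bp it was 6.47 (3.50 to 9.45), over 1.5 times the 3.06 of all sites. For both replicates the difference was −6.16 with each replicate summit within 100 bp of the combined one. Over sites whose summit kept its side in 1 given replicate it was −9.80 to −7.32, with the ranks of both replicates still used. By distance it was −0.723 within 100 bp of the start and −7.26 beyond 300 bp. For the share among the 1496 strongest it was −1.10 and −7.83 in those classes. The peak covering the start went from 4.88 points (−3.57 to 13.2) to −5.72 over 50 bp from the start. The intron share, −8.16 points in all (−15.5 to −0.0445), was −0.922 with protein-coding starts and −0.478 over 50 bp. Over sites whose summit kept its side in 1 given replicate it was −6.68 to −5.65, still by the combined summit. Each of these alternatives had an interval including 0. G and C at the centre went from 3.67 to −2.09 within 100 bp and to 1.40 beyond 300 bp, and the initiator difference was −3.52 within 100 bp and −11.1 between 100 and 300 bp. The smaller number of sites in each class widens its interval, and no further cause was tested. No paired analysis was possible because there was 1 group. The unknown depth limits what absent entries show, and starts taken from annotation limit the side of sites near them.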
